A study of Mus musculus with 6 samples.

Results

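The genes described here are the components of the Wnt signalling pathway: ligands, receptors, secreted and membrane inhibitors, the cytoplasmic relay, DNA-binding effectors and feedback targets. They were chosen by gene name from a deposited table of 15016 genes, of which 61 matched the name pattern. Another 9 genes whose RefSeq symbols match it, Rspo3, Rspo4, Wnt1, Wnt10b, Wnt2, Wnt3, Wnt3a, Wnt8a and Wnt8b, were not rows of the table and were not analysed here. RNA-seq compared organoids of wild-type mouse cochlear progenitor cells in soft gels (3 libraries) and in stiff gels (3 libraries). The gels were hybrids of modified gelatin and hyaluronic acid carrying an RGD adhesion peptide. The comparison addresses how matrix stiffness acts on these cells during differentiation.

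Both groups had the same genotype and media and differed in the gel, as far as the labels say. Expansion lasted 8 to 10 days in medium with N2, B27, EGF, bFGF, IGF, 3 µM CHIR99021, 500 µM valproic acid, phospho-ascorbic acid and a TGF-beta receptor inhibitor. The cells then received a differentiation medium with 3 µM CHIR99021 and 5 µM LY411575, and at this stage the organoids were divided between the gels. CHIR99021 inhibits GSK3 and so switches on Wnt signalling below the receptors, and LY411575 blocks the gamma-secretase cleavage of Notch. All 6 libraries therefore came from cells given a Wnt agonist. Gel stiffness values, time in the gels and animal age do not stand in the sources used here.

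Wnt proteins are lipid-modified secreted ligands that bind Frizzled (Fzd) receptors with the co-receptors Lrp5 and Lrp6. In the canonical branch, this stops a complex of Axin, Apc and GSK3 from destroying beta-catenin, which then enters the nucleus and works with TCF and LEF factors on target genes. Several targets encode inhibitors of the pathway and so close a feedback loop. In the cochlea the pathway acts in the proliferation of prosensory and supporting cells, and a branch without beta-catenin helps to orient hair bundles.

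Depth was 16108470 to 17899391 reads per library over the listed genes. Epithelial and supporting cell genes were present, with 11 of 15 listed markers at a mean of at least 1 FPKM (fragments scaled by gene length and depth), though Prox1 and Fgfr3 stayed under 1 FPKM in every library. The hair cell genes Atoh1 and Pou4f3 were not rows of the table. Summed supporting cell markers were 461 to 568 FPKM in soft and 638 to 696 FPKM in stiff libraries. Against this sum, Cdh1 was lower in every stiff library (64.9, 61.5 and 67.1 against 60.0, 50.4 and 55.9 FPKM). Fibroblast markers summed to 1202 to 1258 and 1350 to 1359 FPKM, with Vim, Lum and Dcn the most abundant, while Col1a1 and Col1a2 were under 1 FPKM in every library. The higher stiff sum came mainly from Lum (394, 316 and 269 against 422, 384 and 428 FPKM) and Dcn (164, 113 and 97.8 against 185, 174 and 186 FPKM). Vim overlapped, and Col3a1 went the other way (43.4, 90.4 and 84.4 against 36.3, 44.5 and 24.4 FPKM). Endothelial markers were lower in stiff libraries, at 25.2 to 34.3 FPKM in soft and 14.3 to 19.7 FPKM in stiff gels, a difference carried by Kdr (18.8, 27.2 and 28.2 against 10.8, 12.8 and 8.68 FPKM). Tek, at 4.58 to 5.49 and 4.86 to 5.77 FPKM, overlapped, and Pecam1 was under 1 FPKM in every library. Sums for pericyte markers were 25.2 to 36.3 and 16.1 to 21.5 FPKM, for hair cell markers 30.2 to 32.4 and 34.5 to 42.1 FPKM, and for glial markers 90.8 to 121 and 114 to 140 FPKM. The pericyte sum was lower in stiff gels mainly through Rgs5 (15.7, 19.3 and 19.6 against 8.91, 9.06 and 7.54 FPKM). Pdgfrb overlapped, and Cspg4 and Kcnj8 were under 1 FPKM in every library. The hair cell sum was higher in stiff gels mainly through Calb2 (6.73, 4.94 and 3.43 against 10.1, 13.7 and 7.88 FPKM). Espn was lower (3.34, 2.93 and 2.57 against 2.35, 1.80 and 2.41 FPKM), and Myo6 and Myo7a overlapped. Neuron markers summed to 21.9 to 25.3 and 32.4 to 35.8 FPKM, higher in stiff gels through Isl1, which is also in the list of Wnt targets given later, while Gap43 was lower. Melanocyte markers summed to at most 1.55 FPKM, and of the 6 immune markers Cd68 alone was listed. The part of these shifts in the results below was not tested. In bulk samples, fewer cells of a type and less RNA per cell cannot be told apart. Soft replicate 1 lay between its group and the stiff libraries on the first principal component, at -1.94 against -16.1 and -18.9 for the other soft and 7.89 to 17.3 for the stiff libraries.

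Members of the Wnt pathway moved in both directions. Of 52 tested members, 3 rose in stiff gels (Wnt7a, Fzd9, Kremen1) and 3 fell (Sfrp4, Nkd2, Myc) in the limma fit over all genes at an adjusted p under 0.05. That is 11.5% of the tested members, beside 5.81% of all 11780 tested genes (3.13% higher and 2.68% lower). The members were chosen with earlier results of these data known, so this share and those that follow are descriptions only. At an unadjusted p under 0.05 limma had 23 members, or 44.2%, beside 21.7% of all genes. The median log2 fold change, stiff minus soft on log2(FPKM + 1), was 0.04 over the members and 0.03 over all genes. The median size of the change without its sign was 0.17 and 0.09. Soft and stiff libraries did not overlap for 21 members, 11 higher and 10 lower in stiff gels, or 40.4%, beside 25.9% of all tested genes (15.5% higher and 10.4% lower). The 9 remaining members were under the filter, a mean of at least 1 FPKM in either group, and 0 of the tested members passed it in 1 group only. In the authors' deposited table, 6 of the 61 members were higher and 10 lower at q under 0.05, where 8.12% of all listed genes were called (3.44% higher and 4.68% lower). The authors' table holds all 6 genes named above, and adds Apc2, Fzd10 and Sfrp1 higher and Apcdd1, Wif1, Lef1, Fzd7, Dkk2, Dkk1 and Wnt16 lower.

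These calls rested on the full set of libraries. Without soft replicate 2, soft replicate 3, stiff replicate 1 or stiff replicate 3, 0 members were called by limma; the same fits called 0.552%, 1.78%, 0.958% and 1.22% of all genes. Without stiff replicate 2 the 3 higher members were called and 0 lower. Without soft replicate 1, 9 members were higher and 3 lower, when 13.8% of all genes were called. All 6 members called with every library were among those 12, and the additions were Fzd10, Fzd2, Fzd4, Sfrp1, Wnt11 and Wnt5a, all higher. With 1 library left out, the largest limma adjusted p among the 6 was 0.153, that of Nkd2. Limma-voom on rebuilt reads called 6 members higher and 5 lower, where it called 7.84% of all genes. Without the filter on low values, limma called 3 higher and 4 lower (3.39% of all genes), and limma-voom 6 and 7 (6.70%).

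**Figure D1:**
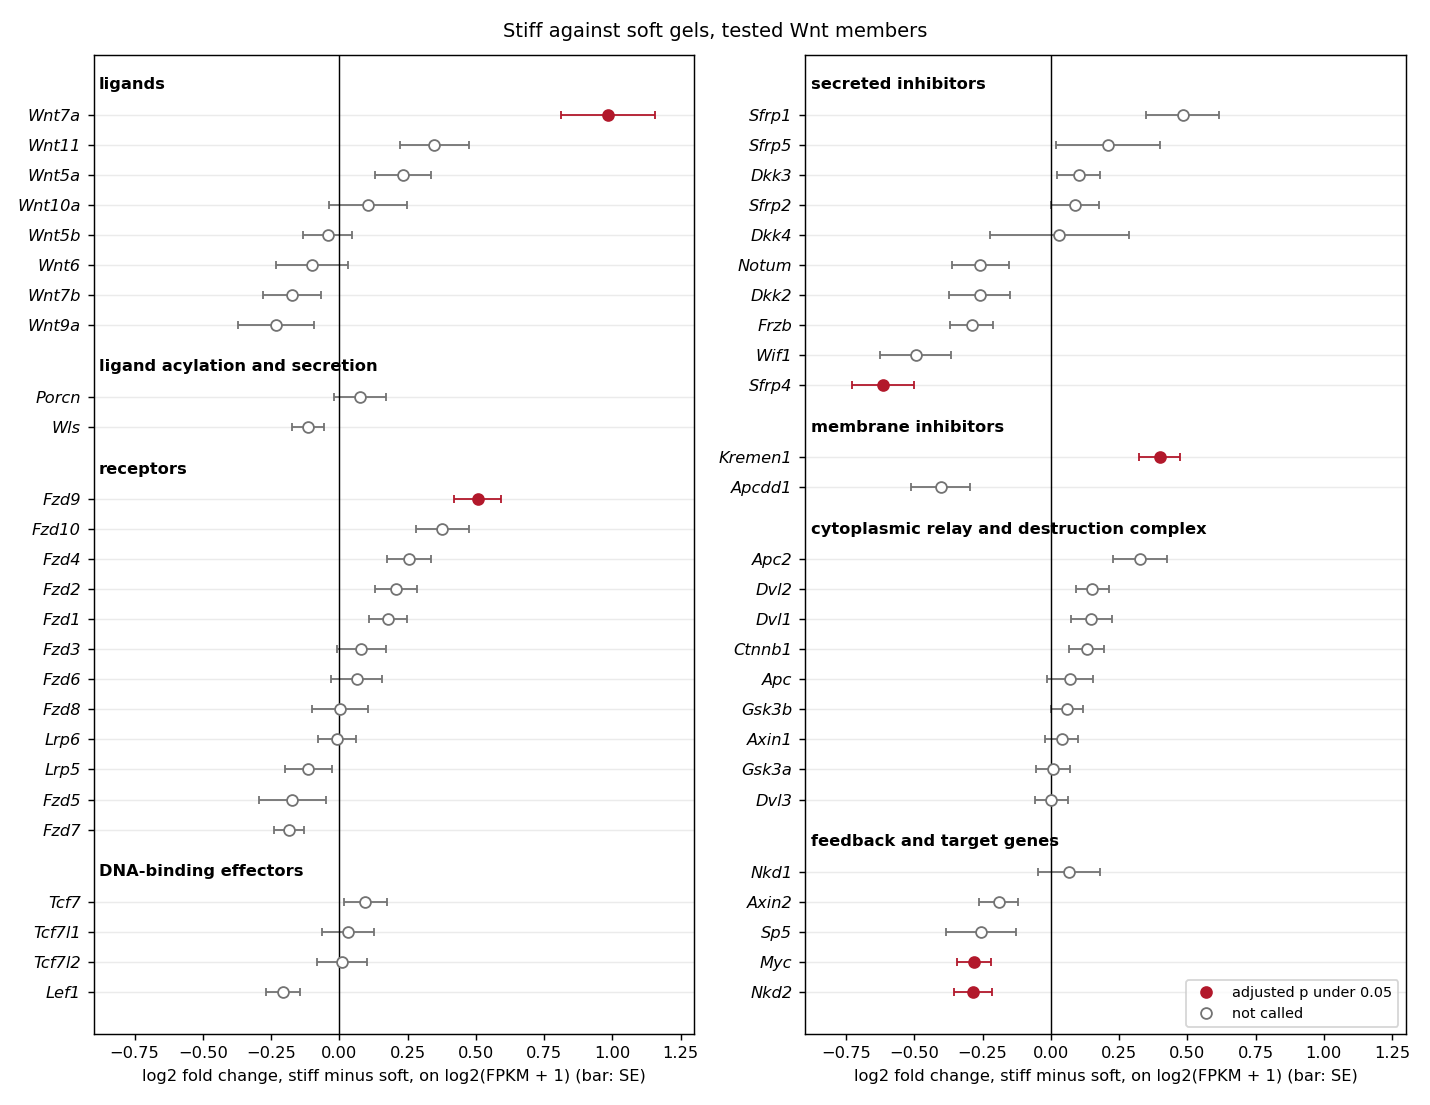
Log2 fold change, stiff minus soft on log2(FPKM + 1), with its SE (bars) for the 52 tested members by role, from limma over 3 and 3 libraries. The 6 filled points are the called members, from 0.98 for Wnt7a to -0.61 for Sfrp4.

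Among the ligands, Wnt5a and Wnt6 were the most abundant in both gels, and Wnt7a had the largest log2 fold change of the 8 ligands that passed the filter. Wnt7a was at 7.64, 4.78 and 4.73 FPKM in soft replicates 1 to 3 and at 14.8, 10.6 and 11.1 FPKM in stiff replicates 1 to 3. The groups did not overlap, and soft replicate 1 was the soft library nearest to the stiff ones. The means were 5.71 ± 1.66 and 12.1 ± 2.29 FPKM (SD, n = 3), a limma log2 fold change of 0.98 ± 0.17 SE (adjusted p = 0.0159; chromosome 6, 91363981 to 91411363, build mm10). Without soft replicate 1 it was 1.18. Wnt7a has been linked to the orientation of hair bundles in the organ of Corti. Its share of the FPKM summed over the 12 listed ligands was 5.95% to 7.73% in soft and 11.4% to 15.5% in stiff libraries. In soft gels Wnt7a came after Wnt7b, its closest paralogue, and in stiff gels before it, with ranges that did not overlap in either gel. Wnt7b itself was at 8.84 ± 0.957 and 7.75 ± 1.13 FPKM (SD, n = 3) and was not called.

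Wnt5a, a ligand mostly of the branch without beta-catenin, was at 33.2, 29.2 and 24.6 FPKM in soft and 35.7, 31.9 and 34.8 FPKM in stiff libraries. The groups overlapped, with soft replicate 1 inside the stiff range. Its log2 fold change was 0.23 ± 0.10 SE (limma, adjusted p = 0.224), and without soft replicate 1 it was called higher (0.33, limma adjusted p = 0.0338). That fit called 13.8% of all genes, and no other setting called Wnt5a. Wnt6 ranged from 25.7 to 37.0 FPKM, highest in soft replicate 1, and Wnt5a and Wnt6 overlapped each other in both gels. Wnt5b, Wnt9a, Wnt11 and Wnt10a followed at means from 1.06 to 4.77 FPKM in soft gels and were not called. Together the 12 ligands summed to 78.7 to 98.7 FPKM in soft and 88.6 to 97.4 FPKM in stiff libraries.

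The machinery that releases ligands showed no call. Wls, the carrier that brings Wnt proteins to the cell surface, was at 55.4, 59.5 and 57.3 FPKM in soft and 51.4, 52.5 and 55.0 FPKM in stiff libraries. Its groups did not overlap, by a narrow gap between soft replicate 1 and stiff replicate 3 (limma log2 fold change -0.11 ± 0.06 SE, adjusted p = 0.312). Porcn, the acyltransferase that attaches the lipid, ranged from 4.70 to 6.21 FPKM.

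**Figure D2:**
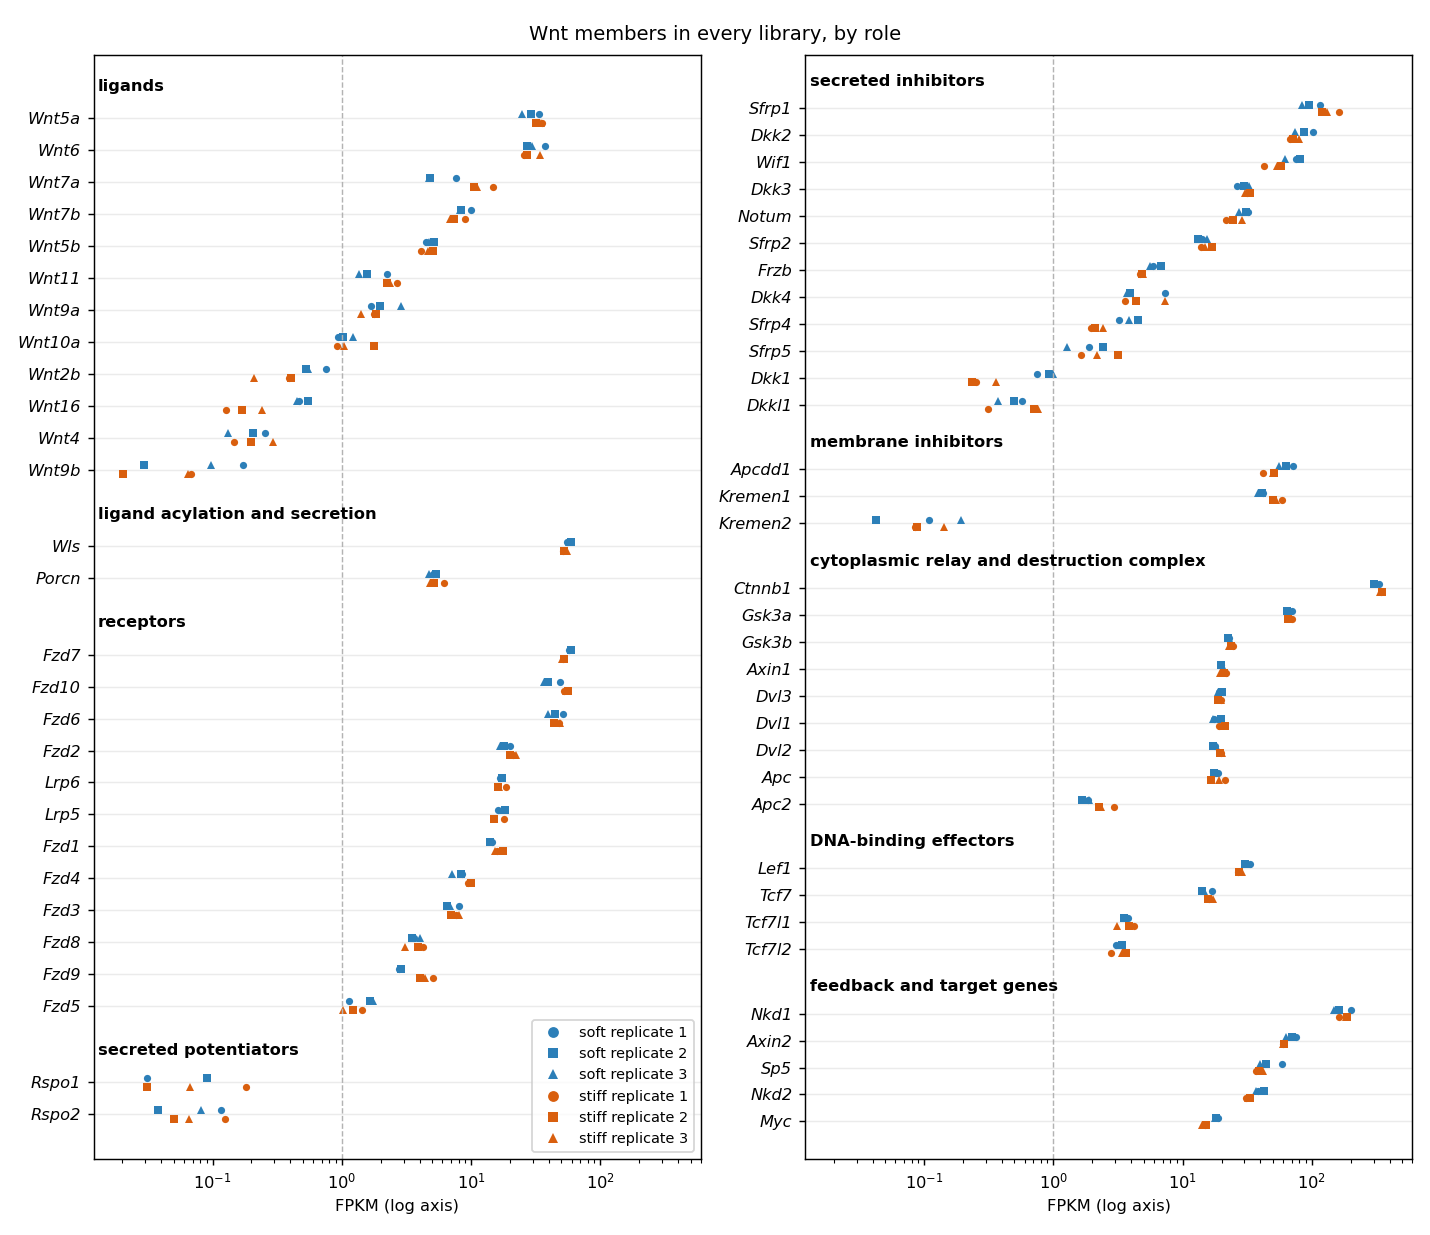
FPKM (log axis) of all 61 members in the 6 libraries, by role; circles, squares and triangles are replicates 1, 2 and 3, blue for soft and orange for stiff gels, and the dashed line marks 1 FPKM. Levels run from Wnt9b, at 0.0203 FPKM in its lowest library, to Ctnnb1, at 350.2 FPKM in its highest, and the 9 members under the filter lie left of the line.

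Of the 10 Frizzled receptors, Fzd9 rose and 0 fell (limma), or 10% called beside 5.81% of all tested genes. Fzd9 was at 2.79, 2.86 and 2.89 FPKM in soft and 5.05, 4.0 and 4.38 FPKM in stiff libraries. The soft libraries were close together and all below the lowest stiff library. Its means were 2.85 ± 0.0498 and 4.48 ± 0.532 FPKM (SD, n = 3; limma log2 fold change 0.51 ± 0.09 SE, adjusted p = 0.0159; chromosome 5, 135248938 to 135251230). Fzd9 has been described as a marker of cochlear supporting cells with progenitor capacity. It gave little of the family's RNA, 1.29% to 1.53% of the summed Frizzled FPKM in soft and 1.85% to 2.34% in stiff libraries.

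The 3 most abundant receptors, Fzd7, Fzd10 and Fzd6, made up 71.7% to 72.8% of the summed Frizzled FPKM in soft and 70.1% to 70.6% in stiff libraries, and their order differed between the gels. Fzd7, a receptor of many canonical Wnts, was at 56.9, 59.7 and 59.5 FPKM in soft and 51.3, 52.3 and 50.9 FPKM in stiff libraries. No soft library overlapped the stiff range, and the change was not called (limma log2 fold change -0.18 ± 0.06 SE, adjusted p = 0.0883). Fzd10 was at 48.9, 39.2 and 36.8 FPKM in soft and 52.1, 55.7 and 54.2 FPKM in stiff libraries. Soft replicate 1 stood above the other soft libraries and under the stiff ones. The change had a limma adjusted p of 0.059 (log2 fold change 0.38 ± 0.10 SE), or 0.00172 without soft replicate 1, when 13.8% of all genes were called. No other leave-one-out fit called Fzd10, and limma-voom on rebuilt reads did. In soft gels Fzd7 was above both others in every library, with Fzd6 and Fzd10 overlapping. In stiff gels Fzd10 and Fzd7 overlapped, and both were above Fzd6.

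Fzd1, Fzd2 and Fzd4 also had groups that did not overlap, higher in stiff gels, at log2 fold changes of 0.18, 0.21 and 0.25, and were not called (limma adjusted p = 0.165, 0.148 and 0.101). Fzd4 is known as the receptor of Norrin in retinal and cochlear vessels. Fzd3 and Fzd6, which act in planar cell polarity, had log2 fold changes of 0.08 and 0.06 with overlapping groups. The sum over the 10 receptors was 189 to 216 FPKM in soft and 216 to 218 FPKM in stiff libraries, and soft replicate 1, at 216 FPKM, was the highest soft library. The co-receptors Lrp5 and Lrp6 were at 17.4 ± 1.13 and 17.2 ± 0.443 FPKM in soft and 16.0 ± 1.71 and 17.1 ± 1.28 FPKM in stiff gels (SD, n = 3), with overlapping groups.

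**Figure D3:**
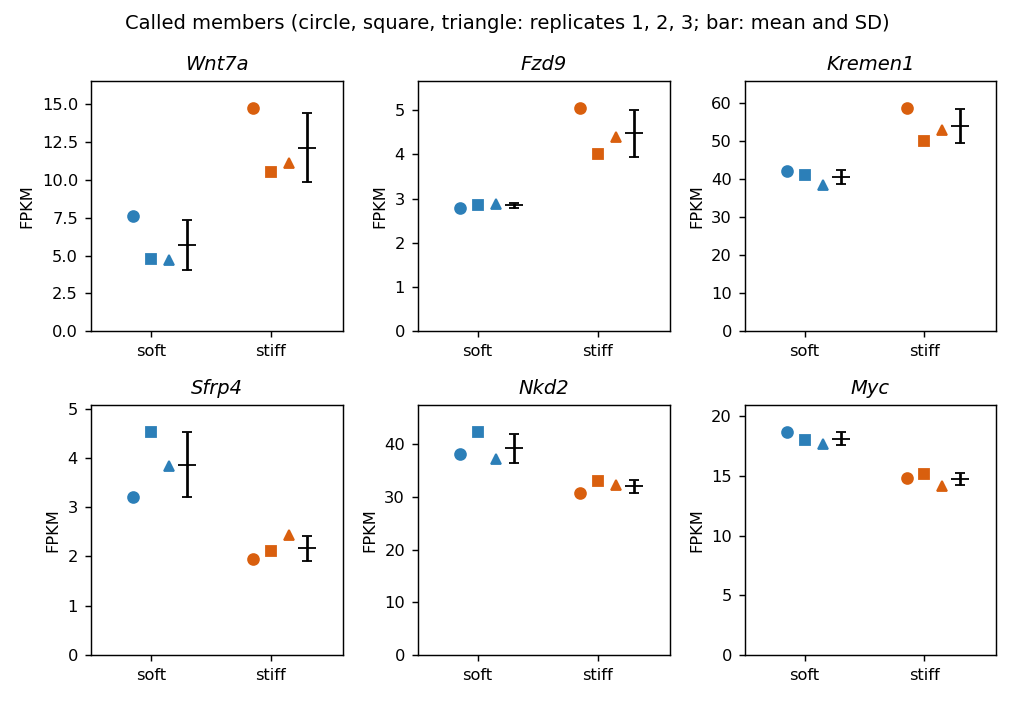
FPKM of the 6 called members in each library, with the mean and SD over 3 libraries beside the points (axes start at 0). Wnt7a, Fzd9 and Kremen1 are higher in all 3 stiff libraries, and Sfrp4, Nkd2 and Myc lower, with no overlap between the groups.

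The secreted inhibitors went both ways, and their sum was 311 to 385 FPKM in soft and 339 to 355 FPKM in stiff libraries. Sfrp4, a secreted Frizzled-related protein that binds Wnt ligands, was at 3.21, 4.54 and 3.84 FPKM in soft and 1.94, 2.12 and 2.43 FPKM in stiff libraries. The groups did not overlap (limma log2 fold change -0.61 ± 0.11 SE, adjusted p = 0.0194; chromosome 13, 19623104 to 19632994). It was the one called among the 10 tested inhibitors, or 10% beside 5.81% of all tested genes.

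The most abundant inhibitor, Sfrp1, was at 115, 94.5 and 83.9 FPKM in soft and 162, 119 and 130.3 FPKM in stiff libraries. Its groups did not overlap, with soft replicate 1 close under stiff replicate 2. The change was not called over all 6 libraries (limma log2 fold change 0.48 ± 0.13 SE, adjusted p = 0.0716). It was called higher without soft replicate 1 (0.60, limma adjusted p = 0.0109), a fit that called 13.8% of all genes. A replicate block (limma adjusted p = 0.0146) and limma-voom on rebuilt reads (0.0459) called it higher too. It was not called with any other library left out, other pseudocounts, median-ratio scaling, no filter or no intensity trend. Wif1, which also binds Wnt ligands outside the cell, was at 75.1, 81.1 and 61.5 FPKM in soft and 42.4, 58.2 and 53.6 FPKM in stiff libraries. Its soft libraries were all above its stiff ones, by a small gap between soft replicate 3 and stiff replicate 2 (limma log2 fold change -0.49 ± 0.13 SE, adjusted p = 0.0613). It was called lower with limma-voom on rebuilt reads (0.0373), a replicate block (0.0413) and median-ratio scaling (0.049), and in no leave-one-out fit. Sfrp1 made up 26.7% to 29.8% of the summed inhibitor FPKM in soft and 35.1% to 46.1% in stiff libraries, and Wif1 19.5% to 22.9% and 12.1% to 17.2%. Frzb, a further ligand-binding relative, was at 6.11 ± 0.591 and 4.80 ± 0.123 FPKM (SD, n = 3), with groups that did not overlap (limma adjusted p = 0.0695).

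Dickkopf (Dkk) proteins block the co-receptors. Dkk2, the most abundant, was at 103, 86.2 and 74.5 FPKM in soft and 67.4, 71.6 and 79.0 FPKM in stiff libraries. The groups overlapped and soft replicate 1 was the highest of all libraries (log2 fold change -0.26, limma adjusted p = 0.22). Dkk4 was at 7.30 FPKM in soft replicate 1 and 7.35 FPKM in stiff replicate 3 and between 3.59 and 4.36 FPKM in the other libraries, so its spread was within the groups. Dkk3, a divergent member of the family, was at 29.6 ± 2.96 and 31.7 ± 1.51 FPKM (SD, n = 3). Dkk1, the best known, was under the filter, at 0.745, 0.921 and 0.995 FPKM in soft and 0.25, 0.233 and 0.359 FPKM in stiff libraries. That is 29, 37 and 40 reads against 10, 9 and 13, and the groups did not overlap. Without the filter Dkk1 was called lower by limma (adjusted p = 0.0144), and the authors' deposited table gives a log2 fold change of -1.70 (q = 0.00404).

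Kremen1, a membrane partner of Dkk proteins that helps to remove Lrp6 from the surface, rose. It was at 41.9, 41.1 and 38.4 FPKM in soft and 58.6, 49.8 and 52.8 FPKM in stiff libraries, with a wide gap between the groups (limma log2 fold change 0.40 ± 0.07 SE, adjusted p = 0.0194; chromosome 11, 5191552 to 5261558). Apcdd1, a membrane glycoprotein that binds Wnt and Lrp5 and is itself a target of the pathway, was at 72.0, 62.6 and 55.4 FPKM in soft and 41.6, 51.1 and 50.0 FPKM in stiff libraries. All soft libraries were above the stiff ones, soft replicate 1 farthest (limma log2 fold change -0.40 ± 0.11 SE, adjusted p = 0.0649). Apcdd1 was called lower by limma-voom on rebuilt reads (0.0415) and after median-ratio scaling (0.0453), and in no leave-one-out fit. Kremen2 had 2 to 9 reads per library.

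Of the 9 cytoplasmic members, 0 were called and 2 had an unadjusted p under 0.05 (limma), or 22.2% beside 21.7% of all tested genes. Ctnnb1, which encodes beta-catenin, was at 330.2, 304 and 305 FPKM in soft and 343, 350.2 and 336 FPKM in stiff libraries. Soft and stiff values did not overlap, by a small gap between soft replicate 1 and stiff replicate 3 (limma log2 fold change 0.13 ± 0.06 SE, adjusted p = 0.278). The amount of beta-catenin protein, which the pathway controls, was not measured. Apc2, a relative of Apc expressed mainly in neurons, was at 1.85, 1.67 and 1.87 FPKM in soft and 2.97, 2.24 and 2.35 FPKM in stiff libraries. The groups did not overlap (limma log2 fold change 0.33 ± 0.10 SE, adjusted p = 0.092), and limma-voom on rebuilt reads called Apc2 higher (0.04). Gsk3a and Gsk3b, which encode the target kinases of CHIR99021, were at 66.3 ± 3.17 and 22.8 ± 0.368 FPKM in soft and 66.7 ± 2.72 and 23.8 ± 0.941 FPKM in stiff gels (SD, n = 3), with overlapping groups. Axin1, Apc and the 3 Dishevelled genes, Dvl1 to Dvl3, had log2 fold changes between 0.0022 and 0.15. The kit does not mark strand, so reads of overlapping genes on opposite strands cannot be told apart. Exons of Ulk4 and Acadvl on the opposite strand overlap 14.6% of the Ctnnb1 and 18.3% of the Dvl2 exon bases. For Gsk3a, an antisense gene overlaps 28.3%.

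Of the 4 TCF and LEF genes, 0 were called and 1 had an unadjusted p under 0.05 (limma), or 25% beside 21.7% of all genes. Lef1, a DNA-binding effector that is also a Wnt target, was at 33.3, 30.2 and 32.3 FPKM in soft and 26.8, 27.2 and 28.6 FPKM in stiff libraries. There was no overlap between the groups (limma log2 fold change -0.21 ± 0.06 SE, adjusted p = 0.0907), and the authors' deposited table gives a q of 0.0311. An antisense gene overlaps 13.7% of its exon bases. Tcf7, Tcf7l1 and Tcf7l2 had overlapping groups, at 15.3 ± 1.45, 3.61 ± 0.137 and 3.23 ± 0.183 FPKM in soft and 16.3 ± 0.827, 3.73 ± 0.539 and 3.27 ± 0.419 FPKM in stiff gels (SD, n = 3).

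Feedback and target genes were abundant in every library. Limma called 2 of the 5, or 40%, both lower, beside 5.81% of all tested genes (2.68% lower). Axin2, Sp5 and Nkd1 were not called. Nkd2, which encodes a Dishevelled-binding inhibitor, was at 38.2, 42.4 and 37.2 FPKM in soft and 30.7, 33.1 and 32.2 FPKM in stiff libraries. The groups did not overlap (limma log2 fold change -0.28 ± 0.07 SE, adjusted p = 0.046; chromosome 13, 73818534 to 73847631). It was not called without the filter (0.06), without the intensity trend (0.0625) or with a replicate block (0.0536). Myc, a growth regulator driven by many pathways besides Wnt, was at 18.7, 18.0 and 17.7 FPKM in soft and 14.8, 15.2 and 14.2 FPKM in stiff libraries. Both groups were tight and apart (limma log2 fold change -0.28 ± 0.06 SE, adjusted p = 0.0323; chromosome 15, 61985391 to 61990374), and the call was lost with a replicate block (0.0586).

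Axin2, the most widely used reporter of canonical signalling, was at 74.9, 69.7 and 62.8 FPKM in soft and 59.97, 60.4 and 60.3 FPKM in stiff libraries. The stiff libraries were almost equal and the soft ones spread above them, highest in soft replicate 1. The change was not called (limma log2 fold change -0.19 ± 0.07 SE, adjusted p = 0.159; chromosome 11, 108920349 to 108950783). Nkd1, the paralogue of Nkd2 and the most abundant of these genes, was at 202, 163 and 147 FPKM in soft and 162, 186 and 185 FPKM in stiff libraries. Its groups overlapped widely, with soft replicate 1 above and soft replicate 3 below all others (limma log2 fold change 0.07 ± 0.11 SE, adjusted p = 0.804). The paralogues Nkd1 and Nkd2 thus gave different calls; the difference between them was not tested. Sp5, a transcription factor gene among the most direct targets of beta-catenin, was at 59.2, 44.0 and 39.8 FPKM in soft and 37.0, 39.0 and 41.8 FPKM in stiff libraries. Soft replicate 1 was far above the rest, which overlapped (log2 fold change -0.26, limma adjusted p = 0.294). Notum, counted among the secreted inhibitors, encodes an enzyme that strips the lipid from Wnt proteins and was at 32.1, 30.8 and 27.2 FPKM in soft and 21.8, 24.6 and 28.8 FPKM in stiff libraries, with overlapping groups (limma adjusted p = 0.187). Antisense genes overlap 29.4% and 8.72% of the Notum exon bases.

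The promoters of Sp5 and Nkd2 are shown because Sp5 holds the DNA motif of the TCF and LEF factors and Nkd2 is a feedback gene that fell. RefSeq promoter windows, from 250 bases before to 50 after the start site, were at hand for 40 of the 61 members (52 windows, build GRCm38.p6). The TCF/LEF core CTTTGAT, or ATCAAAG on the other strand, occurred in 3 of these 52 windows (5.77%), and in 3.73% of all 32851 windows. They belong to Sp5, Wnt5b and Wnt11, with the motif starting 104, 71 and 51 bases before the start site. The windows of Axin2, Lef1 and Nkd2 do not hold these letters. The 250 bases before the start site are printed 5′ to 3′ on the gene's strand, with the motif in capitals, for Sp5 (chr2:70474673-70474922, plus strand) and Nkd2 (chr13:73847632-73847881, minus strand).
Sp5: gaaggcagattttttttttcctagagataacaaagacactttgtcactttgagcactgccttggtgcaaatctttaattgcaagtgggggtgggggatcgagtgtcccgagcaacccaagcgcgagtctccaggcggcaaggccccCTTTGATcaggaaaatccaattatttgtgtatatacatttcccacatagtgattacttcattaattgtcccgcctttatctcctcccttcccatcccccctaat
Nkd2: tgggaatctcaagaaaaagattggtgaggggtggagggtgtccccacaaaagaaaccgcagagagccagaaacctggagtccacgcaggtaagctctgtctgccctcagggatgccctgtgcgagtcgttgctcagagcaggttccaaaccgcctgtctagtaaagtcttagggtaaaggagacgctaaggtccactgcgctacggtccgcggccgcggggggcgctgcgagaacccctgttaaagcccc

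**Figure D4:**
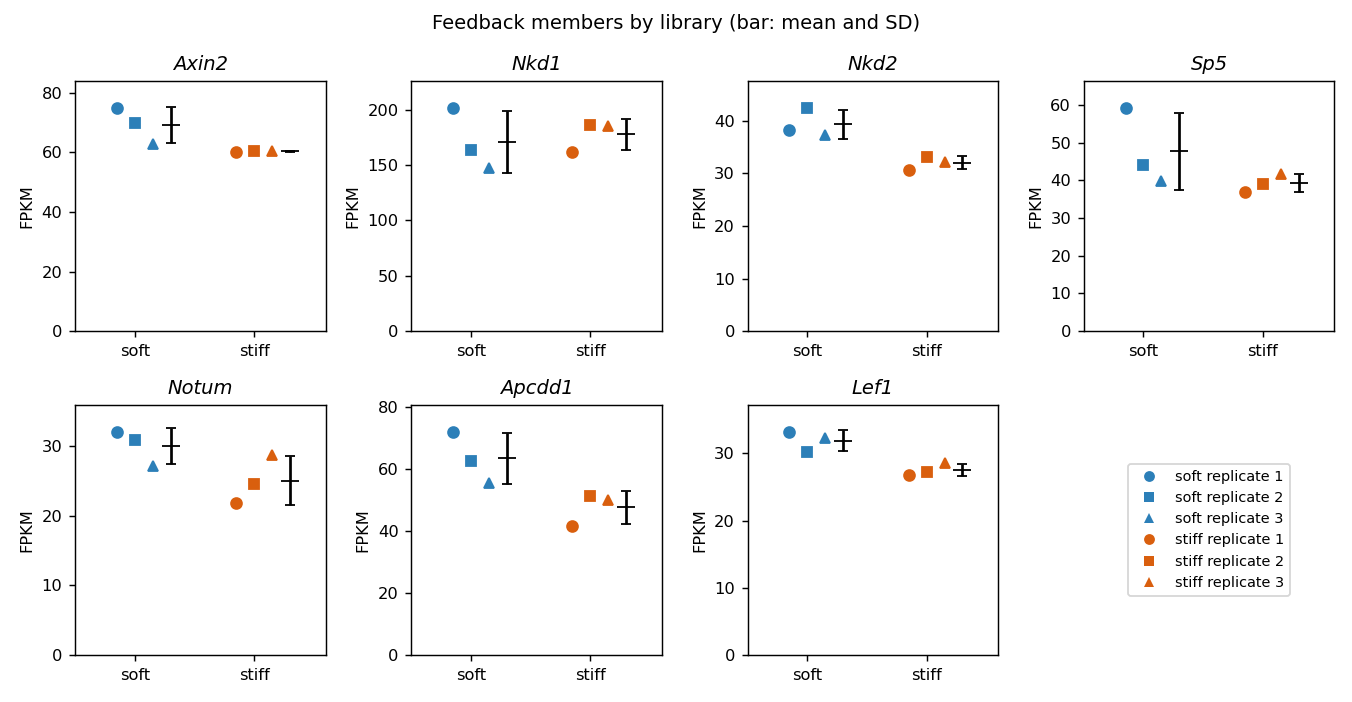
FPKM of 7 members known as feedback targets in each library, with the mean and SD over 3 libraries (axes start at 0). Soft replicate 1 is the highest of all 6 libraries in each panel but that of Nkd2, and Axin2 is at 59.97 to 60.4 FPKM in the stiff libraries.

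Soft replicate 1 was the highest of the 6 libraries for 12 of the 52 tested members, or 23.1%, beside 15.0% of all tested genes. The 12 were Axin2, Nkd1, Sp5, Myc, Lef1, Notum, Apcdd1, Dkk2, Wnt6, Wnt7b, Fzd6 and Gsk3a. Among the 5 feedback and target genes it was the highest for 4. For Sfrp1, Fzd10, Wnt5a and Wnt7a the same library lay between the other soft libraries and the highest stiff one. Without soft replicate 1 the log2 fold changes of Axin2, Sp5 and Apcdd1 were -0.13, -0.09 and -0.31, and that of Nkd1 was 0.19, none of them called by limma (adjusted p = 0.246, 0.493, 0.0727 and 0.183).

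Members under the filter of 1 FPKM were Wnt2b, Wnt16, Wnt4, Wnt9b, Rspo1, Rspo2, Dkkl1, Kremen2 and Dkk1. Rspo1 and Rspo2 encode R-spondins, which raise the amount of Frizzled at the surface through Lgr receptors, and had 1 to 6 and 7 to 23 reads per library. Wnt16 had 25, 30 and 25 reads in soft and 7, 9 and 12 reads in stiff libraries, with no overlap. Without the filter Wnt16 was called lower by limma (adjusted p = 0.0285), and by limma-voom on rebuilt reads (0.043). Wnt2b had 34 to 47 reads in soft and 12 to 25 reads in stiff libraries and was not called by limma or limma-voom (adjusted p = 0.118 and 0.158). Rspo1, Wnt9b and Kremen2 had 3 reads or fewer, the limit that a count of 0 allows, in at least 1 library.

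Outside the members, 61 of 67 listed pathway genes were tested, and 4 rose and 1 fell (limma), or 8.20% beside 5.81% of all genes. The highest rise was that of Lgr5, an R-spondin receptor and supporting cell gene, at a log2 fold change of 1.06 (limma adjusted p = 0.0159). Lgr5 is also among the supporting cell markers summed above. Ankrd6 (0.63), Daam2 (0.41) and Dact3 (0.40), which encode partners of Dishevelled, rose as well, at limma adjusted p = 0.0283, 0.02 and 0.0209. Sostdc1, a secreted antagonist of Wnt and BMP signals, fell from 1.29, 2.20 and 1.15 FPKM in soft to 0.352, 0.499 and 0.638 FPKM in stiff libraries (limma adjusted p = 0.0296); it passed the filter in soft gels only. Among the uncalled genes, Tle5, the corepressor gene Ctbp1 and the secreted Cthrc1 were the most abundant, with log2 fold changes of 0.01, 0.16 and -0.28. The median of the list was 0.06, against 0.03 over all genes. Without soft replicate 2 or stiff replicate 1, 0 of these genes were called, beside 0.552% and 0.958% of all genes. Without soft replicate 3 or stiff replicate 3, 1 was higher, beside 1.78% and 1.22% of all genes called. Without stiff replicate 2, 3 were higher (3.71% of all genes), and without soft replicate 1, 11 were (13.8%). Sostdc1 was the 1 lower call without soft replicate 1 and without soft replicate 3.

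Of 40 further genes known as Wnt targets, many of which answer to other pathways too, 26 were tested, and 2 rose and 4 fell (limma), or 23.1% beside 5.81% of all genes. This list and that of the pathway genes were chosen with earlier results of these data known, so their shares are descriptions only. Jag1, a Notch ligand (log2 fold change 0.81), and Isl1, a transcription factor gene (0.87), rose. Jag1 is also among the supporting cell markers summed above, and Isl1 among the neuron markers. Plaur (-1.27), Mmp7 (-0.75), Tbx3 (-0.44) and Gja1 (-0.43) fell, which encode the urokinase receptor, a matrix protease, a T-box factor and a connexin. Tbx3 was not called with a replicate block (limma adjusted p = 0.0529), and neither Tbx3 nor Gja1 without the filter (0.0648 and 0.0596). Mmp7 was at 5.43, 5.16 and 5.81 FPKM in soft and 2.92, 2.40 and 3.28 FPKM in stiff libraries, and was the one gene of the lists that kept its call in all 6 leave-one-out fits (largest limma adjusted p 0.0446). Id2, Ccnd1 and Tnfrsf19 were the most abundant uncalled genes, with log2 fold changes of 0.10, 0.06 and 0.06. The median over the 26 was -0.02. Without soft replicate 2 or stiff replicate 1 (0.552% and 0.958% of all genes called), 0 of these genes were higher and Mmp7 alone lower. Mmp7 was also the 1 lower call without soft replicate 3 or stiff replicate 3 (1.78% and 1.22% of all genes). Without stiff replicate 2 it was joined by Plaur (3.71% of all genes).

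**Figure D5:**
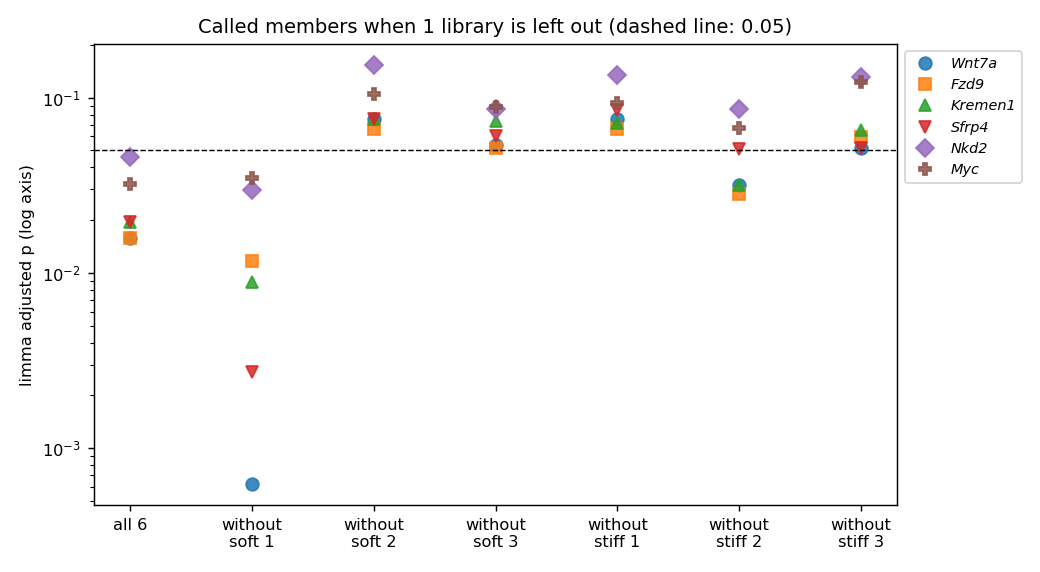
Limma adjusted p (log axis) of the 6 called members with all libraries and with each library left out; the dashed line is 0.05. All 6 lie under the line without soft replicate 1, 3 without stiff replicate 2, and 0 in the other 4 fits.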

How the data were processed

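Gene expression of 6 libraries was taken from 1 table; libraries were made with a kit that does not mark strand and sequenced on an Illumina HiSeq, per the labels' protocols. The expression columns hold FPKM from the authors; their header gives no unit, so it was inferred from the values. The submitters' processing notes name TopHat2 2.1.1, DESeq2 and build mm10; a read counter is not given in the sources used here. Base means, a signal of averaged normalized counts, and the log2 fold change, its standard error, the linear fold ratio, the test score, the p-value and the q-value are the authors' deposited results, per the file headers.

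Genes with a mean of at least 1 FPKM in either group were kept, and limma 3.58.1 (R 4.3.3, intensity trend, no block) was fitted to log2(FPKM + 1) over all 6 libraries, with Benjamini-Hochberg adjustment over all genes tested and a threshold of 0.05. Fold changes on this scale understate the change of low genes. A count test had been planned for a table of counts and limma for scaled values. Reads were rebuilt from the FPKM and base mean; 100.0% of values were whole within 0.05 reads, and all counts of a simulated table were rebuilt (100.0%). The fits were also run on simulated data with known changes. Those data gave all genes the same extra spread and held no outlying library, so they test the code and not these calls. The rebuilt reads served limma-voom as an alternative. The depth of 16108470 to 17899391 reads puts 3 reads, the limit a count of 0 allows, at 0.168 to 0.186 CPM, which covers counting error only.

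Replicates carry the numbers 1 to 3 in each group, and it is not stated that they came from separate cultures or animals; the p-values then cover only how these libraries vary, possibly for technical reasons. No batch is labelled. The named genes were every member by name, with values in full for called members, the most abundant and the most changed member of each role, and Axin2, Lef1 and Ctnnb1; others, such as Fzd10, Wif1, Sp5, Notum and Dkk1, were added after their values were seen, as were the genes of the feedback plot. The members and lists were chosen with earlier results of these data known. Coordinates are from GENCODE M21 (mm10).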

Additional observations from a re-analysis of the deposited data

How the results depend on the processing

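Every alternative was recomputed over the whole table. Limma-voom on rebuilt reads called 6 members higher and 5 lower and 7 other pathway genes higher; with no filter as well, a setting chosen after seeing the data, it called 6 and 7 members and 7 pathway genes higher. Median-ratio scaling called 5 members lower; it moved the median of all genes from 0.03 to 0.0006 and turned the direction of Tcf7l2, Gsk3a, Dvl3 and Fzd8, all close to 0. The other pseudocounts, the filter over all libraries, no filter and no intensity trend kept each count within 1.5 times. Leaving out each library in turn gave 0 to 9 members higher, 0 to 3 lower, 0 to 11 other pathway genes higher, 0 to 1 lower, 0 to 2 target genes higher and 1 to 4 lower. The same fits called 0.552% to 13.8% of all genes. Nkd1 had log2 fold changes of -0.0335 to 0.192 over the leave-one-out fits, lowest without soft replicate 3; the cause was not tested. With a replicate block, 4 members were higher and 2 lower: Sfrp1 and Wif1 were added, and Nkd2 and Myc were lost. Deviations of same-numbered libraries from their group means correlated at r = 0.0087, 0.22 and -0.21. Not every library correlated best with its own number. With 3 libraries per group, these values cannot decide whether the numbers pair the samples. The main fit had no block because the labels do not say what a number shares. Over 27 named genes and 15 alternatives, 321 of 405 values kept direction and side of the threshold, 73 lost the call, 10 gained it and 1 changed sign. The 9 members under the filter had low levels, and of them Rspo1, Wnt9b and Kremen2 had 3 reads or fewer in at least 1 library.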
